A study of Mus musculus with 19 samples.

Results

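The transcripts described here encode the leukaemia inhibitory factor (LIF) signaling chain of mouse endometrium and its closest relatives: the ligands Lif and Il11, the receptors Lifr, Il6st, Il11ra1, Il6ra and Osmr, the kinase Jak1, the transcription factor Stat3 and the feedback inhibitor Socs3. These 10 genes were chosen by name, were matched to the deposited gene identifiers through GENCODE symbols of the GRCm38 mouse genome, and were all found among the 49089 genes of the table. Endometrium was scraped off the myometrium of wild-type C57Bl/6 females, each sample was a pool, and 19 libraries fall into 5 groups. CONT holds 3 libraries, numbered 1, 2 and 4, of untreated virgin females at estrus, collected late in the evening of the day proestrus was seen. INT holds 4 libraries of females collected 3.5 days after mating (day 3.5 pc) with intact Balb/c males. SVX, SVX_VAS and VAS hold 4 libraries each of females at the same day after mating with surgically modified Balb/c males. The surgery in these last groups is not certain. The columns named SVX belong to samples titled vasectomised, those named SVX_VAS to samples titled seminal vesicle-deficient, and those named VAS to samples titled as having both, so the groups are called by their column names and no surgery is read into them. All 4 mated groups were compared with the same 3 estrus libraries, so those comparisons are not independent of each other. How many animals went into a pool was not found in the sources used here, and p-values therefore measure the spread between pools.

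LIF is a secreted cytokine that binds the LIF receptor (LIFR), which pairs with gp130, the shared signal transducer encoded by Il6st. Interleukin 11, interleukin 6 and oncostatin M bind their own receptor chains, encoded by Il11ra1, Il6ra and Osmr, and signal through the same gp130. The receptors carry no kinase of their own, and Janus kinases such as JAK1 phosphorylate STAT3, which enters the nucleus and among other genes induces Socs3, whose product damps the same receptors. In the mouse uterus, LIF from the glands is needed for blastocyst attachment, and interleukin 11 signaling is needed for decidua formation after attachment.

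Libraries held between 12661266 and 31781270 counts on genes, with the estrus libraries at 15487788 to 31781270. Marker genes of endometrium were present in every group. The summed level of 9 stromal markers was 4933 to 5149 CPM (counts scaled by library size, with TMM factors) at estrus and 7159 to 8607 in INT, and that of 8 epithelial markers was 3877 to 5285 at estrus and 782 to 2612 in INT. Fewer cells of a type and less RNA per cell cannot be told apart in such bulk samples. VAS replicates 2 and 3 stood apart from the other 17 libraries in their most abundant transcripts, with the nuclear RNA Malat1 at 548.3 and 547.8 CPM against 8263 to 14050 elsewhere. Their stromal marker sums were 1885 and 2026 CPM, against 4933 or more elsewhere. Col1a1, Col3a1, Dcn and Vim were lower in this pair than in every other library. Pdgfrb, Hoxa10, Hoxa11 and Hand2 lay above all estrus libraries in the pair, and Pdgfra did in replicate 2 only. The pair's sums of 6 neutrophil markers were 53.3 and 67.4 CPM, against 21.9 or less elsewhere. Csf3r, Cxcr2, S100a8 and S100a9 were highest in the pair. Ly6g, at 1.21 and 1.22 CPM, was below estrus, and Mpo was at most 0.094 CPM. The part of these marker levels in the VAS values was not tested. The main-fit VAS differences from estrus of the 9 genes tested below are also given without this pair. So are the main-fit counts of VAS calls against estrus among these genes and among the STAT3 targets. VAS counts from other tools, from unadjusted p-values and from the replicate block are given with the pair only. INT replicates 1 and 2 differed from INT replicates 3 and 4 in the summed level of 6 genes. These genes, Ltf, Clca1, C3, Muc1, Lcn2 and Wap, were listed as induced by estrogen in uterine epithelium. This sum was 10830 to 14340 CPM at estrus, 9389 and 3222 in INT replicates 1 and 2, and 184.6 and 252.6 in INT replicates 3 and 4. Wap was at most 0.441 CPM in any library and no higher at estrus, and Lcn2 is also among the STAT3 targets below.

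At day 3.5 pc the receptor transcripts had moved in opposite directions. Lifr, Il6ra and Osmr fell after mating with intact males, each by a little over 2-fold, while Il11ra1 rose 2.89-fold and Jak1 rose 1.74-fold. Stat3 was 1.37-fold lower and Socs3 1.43-fold higher, both past the FDR cutoff but short of the size cutoff, Il6st did not pass the test, and Lif, although its mean was 2.39-fold lower, did not pass it either. A gene is called here when edgeR's quasi-likelihood test across all 17222 tested genes gave a false discovery rate (FDR) of 0.05 or less and the change was at least 1.5-fold. Of the 9 genes tested, 2 were called higher and 3 lower in INT, where 33.6% of all tested genes were called, 20.9% higher and 12.7% lower. All 9 reached the abundance filter, at least 3 CPM in at least 3 libraries, through the estrus libraries alone, while Il11 was below it and is described without that test. The median log2 fold change (logFC) of the 9 genes was -0.45, beside -0.01 over all tested genes. With about 1 in 3 of all tested genes called, the 5 calls are a description of these genes and set them apart from no others.

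**Figure D1:**
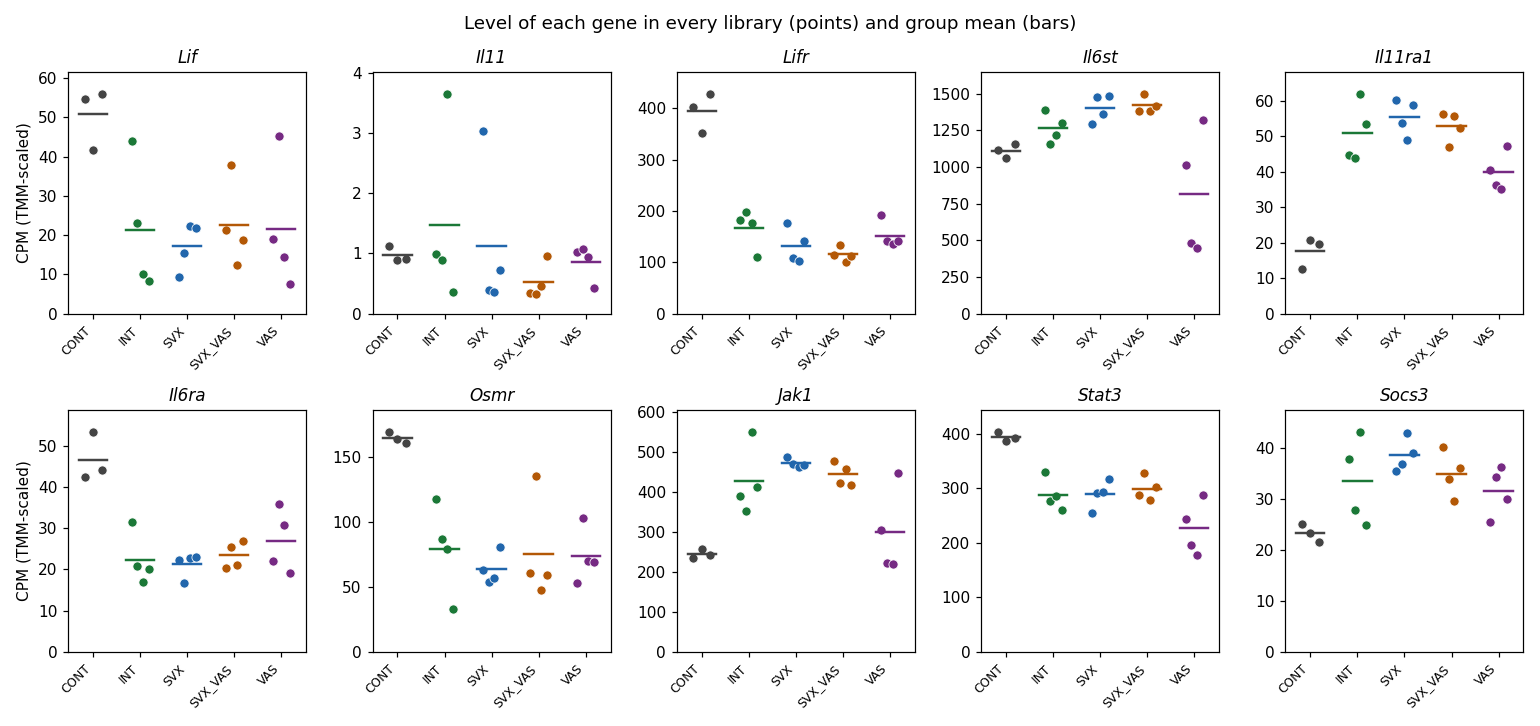
Level of each of the 10 genes in every library, in CPM after TMM scaling, with 1 point per library and a bar at the group mean. Lifr, Osmr, Il6ra and Stat3 lie below all estrus libraries in all 16 mated libraries, Il11ra1 lies above them in all 16, and Il6st and Jak1 spread widely in VAS.

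Lif (ENSMUSG00000034394.14, chr11:4257557-4272514, plus strand, GRCm38) was highest at estrus, with 54.8, 41.6 and 56.0 CPM in CONT replicates 1, 2 and 4. The INT replicates 1 to 4 gave 43.9, 23.2, 9.98 and 8.19 CPM. INT replicate 1 therefore lay among the estrus libraries and the other 3 lay below them. The SVX replicates 1 to 4 gave 9.35, 15.6, 22.4 and 21.8 CPM, all below estrus. In SVX_VAS the values were 21.4, 37.8, 12.3 and 18.8 CPM, also all below estrus, and in VAS they were 18.9, 45.4, 14.5 and 7.56 CPM, with replicate 2 inside the estrus range. In CPM without TMM factors VAS replicate 2 lay above estrus, at 58.19 against at most 47.72 CPM. Group means were 50.8 ± 7.98 (SD, n = 3) at estrus and 21.3 ± 16.5, 17.3 ± 6.11, 22.6 ± 10.9 and 21.6 ± 16.5 (SD, n = 4 each) in INT, SVX, SVX_VAS and VAS. The 4 mated groups thus share a mean near 20 CPM with a wide spread between pools.

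The logFC of Lif against estrus was -1.25 in INT (SE 0.59, FDR = 0.0901, 95% interval -2.50 to -0.01), and an exact permutation test of the 7 libraries gave a two-sided p of 0.114, where 3 against 4 libraries cannot give less than 0.0571. In SVX it was -1.56 (SE 0.59, FDR = 0.0333), which is a call, and in SVX_VAS and VAS it was -1.17 (FDR = 0.104) and -1.23 (FDR = 0.084), which are not. The calls depended on single libraries and on the tool. Without INT replicate 1 the INT difference became -1.88 (FDR = 0.0148), and without VAS replicates 2 and 3 the VAS difference became -1.90 (FDR = 0.03), where 36.2% of all genes were called. The SVX call was lost without CONT replicate 1 (FDR = 0.0763), CONT replicate 4 (0.0757), SVX replicate 1 (0.0847) or SVX replicate 2 (0.07), and with upper quartile scaling (-1.38, FDR = 0.0541). It was also lost with the replicate number as a block in the fit. DESeq2 called Lif in SVX (FDR = 0.0165) and not in INT (0.0631), SVX_VAS (0.0799) or VAS (0.0556). With limma-voom sample quality weights it was called in INT (-1.38, FDR = 0.00873). With plain limma-voom, which the study's methods also name, Lif was called lower in all 4 mated groups, at -1.60 (FDR = 0.018), -1.61 (0.0181), -1.24 (0.0413) and -1.44 (0.0178), where that tool called 35.7%, 42.2%, 40.5% and 50.8% of all genes.

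Lif was set beside the genes listed as estrogen-induced, library by library. The highest Lif values among mated libraries outside VAS, 43.9 CPM in INT replicate 1 and 37.8 CPM in SVX_VAS replicate 2, stood in the libraries with the highest sums of those genes, 9389 and 10320 CPM. VAS replicate 2 had 45.4 CPM of Lif at a sum of only 1035 CPM, and it is one of the libraries that stood apart. INT replicate 2 and VAS replicate 1, with the next highest sums (3222 and 2585 CPM), held 23.2 and 18.9 CPM of Lif, close to SVX replicate 3 with 22.4 CPM at a sum of 190.6 CPM. With INT replicates 1 and 2 left out, a choice made after the data were seen, Lif was 2.48 lower on the log2 scale in INT than at estrus (SE 0.66, FDR = 0.00618), a call, where 38.9% of all genes were called. Of the 8 epithelial markers 5 were called lower in INT and none higher. The sum of 6 gland markers was 6.00 to 17.2 CPM at estrus and 86.1 to 466 in INT. The part of these marker differences in the Lif values was not tested.

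**Figure D2:**
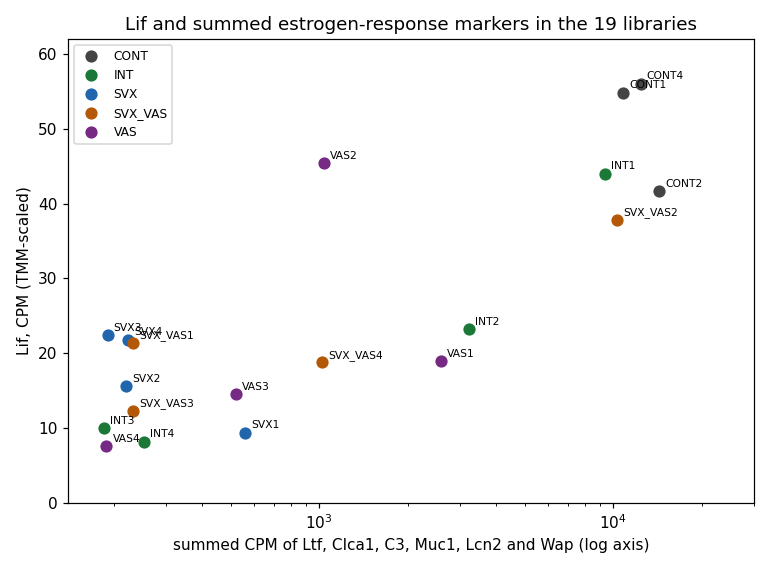
Lif in CPM (linear axis) against the summed CPM of 6 genes listed as estrogen-induced (log axis) in the 19 libraries, coloured by group. The 3 estrus libraries, INT replicate 1 and SVX_VAS replicate 2 sit together at the upper right, the other mated libraries except VAS replicate 2 lie under 25 CPM, and VAS replicate 2 lies high at a low marker sum.

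Il11 (ENSMUSG00000004371.14, chr7:4772373-4782857, minus strand) was close to the limit of detection in all groups. Estrus libraries held 12 to 25 counts of it, or 1.13, 0.898 and 0.910 CPM, and the INT libraries held 0.983, 0.882, 3.65 and 0.350 CPM. The highest values of the series were INT replicate 3 with 64 counts and SVX replicate 1 with 3.04 CPM, while the remaining mated libraries lay at or below 1.07 CPM. All mated groups overlapped estrus or lay on both sides of it, with 3 of 4 libraries in SVX and in SVX_VAS under the estrus values. Exact permutation tests against estrus gave p = 0.971 in INT, 0.8 in SVX, 0.171 in SVX_VAS and 0.743 in VAS. With 3 against 4 libraries this test cannot give less than 0.0571, so it could not have passed 0.05. When the fit was repeated with no abundance filter, the logFC of Il11 in INT was 0.58 (SE 0.72, FDR = 0.635). Counts were low and the INT pools spread from 0.350 to 3.65 CPM, and that fit detected no difference from estrus in INT. For SVX, SVX_VAS and VAS no conclusion on a difference is drawn.

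Lifr (ENSMUSG00000054263.11, chr15:7129559-7197489, plus strand) fell in each mated group. It measured 402.9, 351.3 and 428.5 CPM at estrus and 182.7, 198.6, 175.7 and 109.4 CPM in INT, with no overlap. The SVX libraries held 176.9, 107.8, 103.0 and 141.2 CPM, the SVX_VAS libraries 114.3, 133.9, 100.5 and 113.2 CPM, and the VAS libraries 191.4, 140.6, 135.8 and 141.0 CPM. Every mated library was thus under every estrus library. The logFC was -1.24 in INT (SE 0.21, FDR = 0.000148), -1.58 in SVX (FDR = 1.21e-05), -1.77 in SVX_VAS (FDR = 6.49e-06) and -1.37 in VAS (FDR = 4.76e-05), that is 2.37-, 2.98-, 3.41- and 2.59-fold lower, and without VAS replicates 2 and 3 the VAS value was -1.22. Non-overlap with estrus was itself common, since 62.3% of all tested genes had it in INT, 70.9% in SVX, 67.5% in SVX_VAS and 55% in VAS. The call held in each of these groups with each library left out in turn, and over these fits the INT value ranged from -1.34 to -1.09.

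Il6st (ENSMUSG00000021756.12, chr13:112464070-112510086, plus strand), the partner of every ligand receptor in this set, was the most abundant of the 10 transcripts per length and did not pass the test in any mated group. Estrus libraries held 1116, 1061 and 1158 CPM and INT libraries 1392, 1157, 1217 and 1304 CPM, of which 3 lay above estrus. The INT difference was 0.19 on the log2 scale (SE 0.28, FDR = 0.617, 95% interval -0.40 to 0.78). All SVX libraries (1294 to 1486 CPM) and all SVX_VAS libraries (1385 to 1500 CPM) lay above estrus, at logFC of 0.34 (FDR = 0.323) and 0.35 (FDR = 0.305), without passing the test. The VAS libraries split, with 1013, 478.8, 444.9 and 1323 CPM in replicates 1 to 4, and the low pair is the pair that stood apart. The VAS logFC was -0.45 (FDR = 0.175), and 0.10 (FDR = 0.471) without that pair. With that pair left out of the fit the SE of the INT value fell to 0.09 and its FDR to 0.058, and the SVX_VAS difference became 0.39 (FDR = 0.00212), still under the 1.5-fold cutoff.

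Il11ra1 (ENSMUSG00000073889.10, chr4:41699989-41769474, plus strand), the receptor chain specific to interleukin 11, rose in every mated group. It went from 12.7, 20.6 and 19.6 CPM at estrus to 44.6, 43.9, 61.9 and 53.4 CPM in INT. Values in the other mated groups were 48.9 to 60.3 CPM in SVX, 46.8 to 56.1 in SVX_VAS and 35.1 to 47.3 in VAS. No mated library overlapped estrus, and VAS held the lowest of the mated values. The logFC was 1.53 in INT (SE 0.17, FDR = 5.98e-06), 1.65 in SVX (FDR = 1.92e-06), 1.58 in SVX_VAS (FDR = 3.43e-06) and 1.17 in VAS (FDR = 2.98e-05), or 1.34 without VAS replicates 2 and 3. These counts are uncertain in their assignment to this gene: 46.3% of the 50-base words of its GENCODE transcripts also occur in transcripts of other genes, chiefly Gm13305 and the near copy Il11ra2. Il11ra2 had 0 counts in all 19 libraries.

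Il6ra (ENSMUSG00000027947.11, chr3:89864059-89913196, minus strand), the interleukin 6 receptor chain, fell about as much as Osmr in INT. It measured 42.4, 53.4 and 44.1 CPM at estrus and 31.5, 20.7, 17.1 and 20.02 CPM in INT. Group means in the other mated groups were 21.3 ± 3.01, 23.5 ± 3.26 and 27.0 ± 7.77 CPM (SD, n = 4) in SVX, SVX_VAS and VAS, with every library under estrus, although VAS replicates 2 and 3 overlapped it in CPM without TMM factors. The logFC was -1.06 in INT (SE 0.22, FDR = 0.000917), -1.13 in SVX (FDR = 0.000386), -0.99 in SVX_VAS (FDR = 0.00129) and -0.79 in VAS (FDR = 0.00615). The VAS value was -1.15 without VAS replicates 2 and 3, and it dropped under the size cutoff with upper quartile scaling (-0.57) and with sample quality weights (-0.54). Of its exonic bases, 2.8% lie opposite those of Gm42809, and whether the counting used the strand was not found in the sources used here.

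Osmr (ENSMUSG00000022146.12, chr15:6813577-6874969, minus strand), the oncostatin M receptor chain, lies close to Lifr on the same chromosome. It held 169.4, 164.2 and 160.9 CPM at estrus, a narrow range, and 117.6, 86.8, 79.3 and 33.1 CPM in INT. Means in SVX, SVX_VAS and VAS were 63.6 ± 11.9, 75.7 ± 40.2 and 73.9 ± 21.1 CPM, with SVX_VAS replicate 2 at 135.4 CPM, the mated library closest to estrus. All mated libraries were below all estrus libraries, although INT pools differed by more than 3-fold among themselves. The logFC was -1.06 in INT (SE 0.37, FDR = 0.0255), -1.37 in SVX (FDR = 0.00448), -1.12 in SVX_VAS (FDR = 0.0167) and -1.16 in VAS (FDR = 0.0132), or -1.40 without VAS replicates 2 and 3. The INT call was lost without CONT replicate 1 (FDR = 0.0635), CONT replicate 2 (0.0526), CONT replicate 4 (0.0509) or INT replicate 4 (-0.80, FDR = 0.0606), and the SVX_VAS call without SVX_VAS replicate 3 (FDR = 0.0531).

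Jak1 (ENSMUSG00000028530.14, chr4:101152367-101265282, minus strand), a kinase docked on gp130, rose in INT, SVX and SVX_VAS. Estrus libraries held 234.6, 256.9 and 241.5 CPM and INT libraries 389.7, 352.6, 549.1 and 412.9 CPM. The SVX libraries lay close together at 461.9 to 487.6 CPM and the SVX_VAS libraries at 417.7 to 476.7 CPM. In VAS replicates 1 to 4 the values were 305.2, 222.5, 219.3 and 447.6 CPM, so 2 libraries were above estrus and 2, the pair that stood apart, were below it. The logFC was 0.80 in INT (SE 0.20, FDR = 0.00406), 0.95 in SVX (FDR = 0.000894), 0.86 in SVX_VAS (FDR = 0.00216) and 0.29 in VAS (SE 0.20, FDR = 0.23). Without VAS replicates 2 and 3 the VAS difference was 0.65 (FDR = 0.0043), a call. In CPM without TMM factors all 16 mated libraries lay above estrus, so the place of that pair below it depended on the scaling.

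Stat3 (ENSMUSG00000004040.16, chr11:100885098-100939540, minus strand) was tightly grouped at estrus, with 403.1, 385.9 and 392.7 CPM, and lower in each of the 16 mated libraries. The INT values were 330.7, 277.1, 285.8 and 260.1 CPM. SVX libraries ranged from 254.0 to 317.2 CPM, SVX_VAS libraries from 278.3 to 328.8 CPM and VAS libraries from 178.0 to 287.1 CPM. The difference was modest: the logFC was -0.45 in INT (SE 0.14, FDR = 0.0128), -0.45 in SVX (FDR = 0.0109) and -0.40 in SVX_VAS (FDR = 0.0219), all below the 1.5-fold cutoff, and with upper quartile scaling the SVX and SVX_VAS values also missed the FDR cutoff (0.0623 and 0.088). In VAS it was -0.80 (SE 0.14, FDR = 0.000152), 1.74-fold lower and a call. The 2 lowest values, 196.4 and 178.0 CPM, came from VAS replicates 2 and 3, and without them the VAS value was -0.54 (FDR = 0.00181), under the size cutoff.

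Socs3 (ENSMUSG00000053113.3, chr11:117966079-117970047, minus strand) went the other way from Stat3. Estrus libraries held 25.1, 23.2 and 21.6 CPM and INT libraries 37.7, 27.9, 43.1 and 24.9 CPM, with INT replicate 4 inside the estrus range. In CPM without TMM factors INT replicate 4 lay above estrus, at 24.85 against at most 21.13 CPM. All libraries of SVX (35.4 to 42.9 CPM), SVX_VAS (29.5 to 40.2 CPM) and VAS (25.5 to 36.3 CPM) lay above estrus, VAS replicate 1 only just. The logFC was 0.52 in INT (SE 0.17, FDR = 0.0196), 0.72 in SVX (FDR = 0.00187), 0.58 in SVX_VAS (FDR = 0.00907) and 0.43 in VAS (FDR = 0.039), and of these only the SVX value reached 1.5-fold. In INT it was called with upper quartile scaling (0.64, FDR = 0.00823), without INT replicate 2 (0.60, FDR = 0.0122) and without INT replicate 4 (0.64, FDR = 0.00532). Without VAS replicates 2 and 3 the VAS value was 0.27 (FDR = 0.25).

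Since Socs3 is a textbook STAT3 target, RefSeq start-site windows (GRCm38.p6, 250 bases before to 50 after the start, 300 in all) were searched for the STAT motif TTCNNNGAA, which reads the same on both strands. Among 13 windows of the 10 genes it was found in the Socs3 window alone, at -154 to -146 from the start site. It is shown because Socs3 alone held it, in lower case with the match in capitals, on the minus strand at chr11:117969492-117969540.
Socs3: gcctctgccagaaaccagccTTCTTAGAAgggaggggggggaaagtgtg
This motif is not rare: 8.3% of 32851 windows of all genes hold it, as do 4 of 59 windows of the other pathway genes below. The stricter form TTCCNGGAA, held by 1.15% of all windows, was in none of the 13, that of Socs3 included. A match describes the letters and shows no binding.

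**Figure D3:**
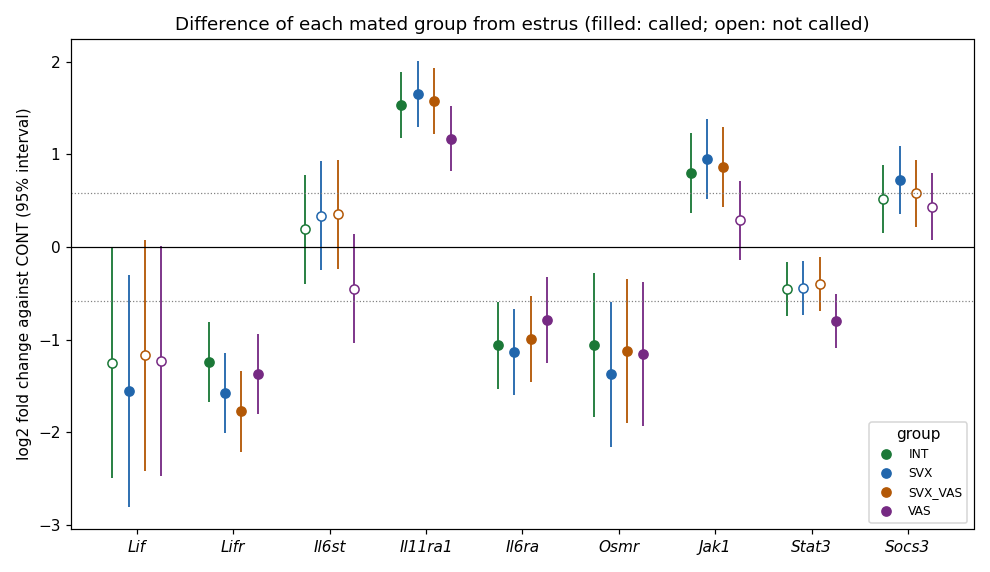
Log2 fold change of each mated group against estrus for the 9 tested genes, with 95% intervals from the edgeR fit, filled where called and open where not; dotted lines mark 1.5-fold. The 4 groups lie on the same side of 0 for every gene except Il6st, and VAS lies below the other 3 groups for Il6st, Il11ra1, Jak1, Stat3 and Socs3.

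Counted over the set, SVX had 3 genes called higher (Il11ra1, Jak1, Socs3) and 4 lower (Lif, Lifr, Il6ra, Osmr), where 41.5% of all tested genes were called, 23.1% higher and 18.4% lower. SVX_VAS had 2 higher and 3 lower, the genes of the INT calls, where 38.5% were called, 22.1% higher and 16.4% lower. Without VAS replicates 2 and 3 in the fit, Socs3 was called higher there too (0.61, FDR = 0.00485), where 43% of all genes were called. VAS had 1 higher (Il11ra1) and 4 lower (Lifr, Il6ra, Osmr, Stat3), where 40.4% were called, 23.2% higher and 17.2% lower. Without replicates 2 and 3 it had 2 higher (Il11ra1, Jak1) and 4 lower (Lif, Lifr, Il6ra, Osmr), where 36.2% were called. Il11ra1, Lifr, Il6ra and Osmr were thus called in the same direction in all 4 mated groups, each against the same estrus libraries. The share of all tested genes called alike in all 4 groups is not given here, so this count sets these genes apart from no others. The medians over the 9 genes were -0.45, -0.40 and -0.79 in SVX, SVX_VAS and VAS, beside -0.01, -0.02 and -0.07 over all tested genes.

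Whether the male partner's surgery altered this signaling chain is the question that the comparisons with INT address. None of the 9 genes, and 0% of all tested genes, was called by edgeR between SVX and INT, SVX_VAS and INT, or VAS and INT, and libraries that did not overlap INT were found for 2.6%, 1.75% and 1.23% of all tested genes. At an unadjusted p below 0.05 there were 749, 339 and 1831 genes, of which 0, 1 and 4 were among the 9, and DESeq2 called 3, 2 and 0 genes (0.0174%, 0.0116% and 0%), none of them in this set. The gene past that unadjusted limit in SVX_VAS was Lifr, at -0.53 (SE 0.19, unadjusted p = 0.014, FDR = 1). In VAS they were Il6st at -0.64 (unadjusted p = 0.0248), Il11ra1 at -0.36 (0.0271), Jak1 at -0.51 (0.0139) and Stat3 at -0.35 (0.0145), each with an edgeR FDR of 0.452.

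The lowest VAS levels of these 4 genes were those of the pair of libraries that stood apart. VAS replicate 1 also lay below every INT library for each of them, at 1013, 40.4, 305.2 and 243.7 CPM. In the fit without VAS replicates 2 and 3, which leaves VAS replicates 1 and 4, the differences became -0.11, -0.21, -0.18 and -0.12, each with an FDR of 1. Conversely, without VAS replicate 4 Il6st (-0.97, FDR = 0.0469) and Jak1 (-0.78, FDR = 0.0287) were called lower than in INT, where 0.778% of all genes were called, and with limma-voom sample quality weights Il6st, Jak1 and Stat3 were, where 27.4% of all genes were called. For Lif the 95% intervals of the difference from INT were -1.47 to 0.87 in SVX, -1.08 to 1.25 in SVX_VAS and -1.14 to 1.19 in VAS, so a 1.5-fold difference in either direction lies inside each of them. For Socs3 the intervals were narrower, -0.13 to 0.54, -0.27 to 0.39 and -0.42 to 0.25. A joint edgeR test over the 4 mated groups gave an FDR of 0.635 or more for each of the 9 genes and called none of all tested genes, with 1213 genes at an unadjusted p below 0.05. This depended on the tool: limma-voom called 8.11% of all tested genes and none of the 9, and limma-voom with sample quality weights called 54.8% and 6 of the 9, with Il6st (FDR = 5.13e-07), Jak1 (2.71e-06) and Stat3 (6.85e-05) lowest in FDR, followed by Il11ra1 (0.00315), Lifr (0.0145) and Il6ra (0.031).

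Levels of different genes were compared only per kilobase of exons (CPM per kb). At estrus Il6st led with 100.1 CPM per kb, followed by Stat3 at 41.3, Lifr at 38.2, Jak1 at 33.8, Osmr at 13.6, Lif at 11.7, Socs3 at 8.06, Il6ra at 5.39, Il11ra1 at 3.94 and Il11 at 0.487. In INT the order was Il6st (114.2), Jak1 (59.0), Stat3 (30.3), Lifr (16.1), Socs3 (11.6), Il11ra1 (11.4), Osmr (6.54), Lif (4.90), Il6ra (2.58) and Il11 (0.729). The shared chain gp130 was thus far above its partner chains in both groups, and Il11ra1 went from next to last to a place beside Socs3. The level and place of Il11ra1 in this order carry the uncertain assignment of its counts described above. The ratio of Il6st to Lifr within a library, on this scale, was 2.51 to 2.81 at estrus and 5.43 to 11.1 in INT, 6.81 to 12.7 in SVX, 10.4 to 12.8 in SVX_VAS and 3.05 to 8.73 in VAS. Jak1 per Stat3 was 0.767 to 0.878 at estrus and 1.49 to 2.53 over the mated groups. Socs3 per Stat3 was 0.181 to 0.205 at estrus and 0.315 to 0.672 over the mated groups. None of these 3 ratios overlapped between estrus and any mated library. The ratios were chosen after the levels were seen and carry no test. Lifr and Stat3, by which they divide, were already below estrus in every mated library. The share of other gene pairs without overlap is not given here.

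**Figure D4:**
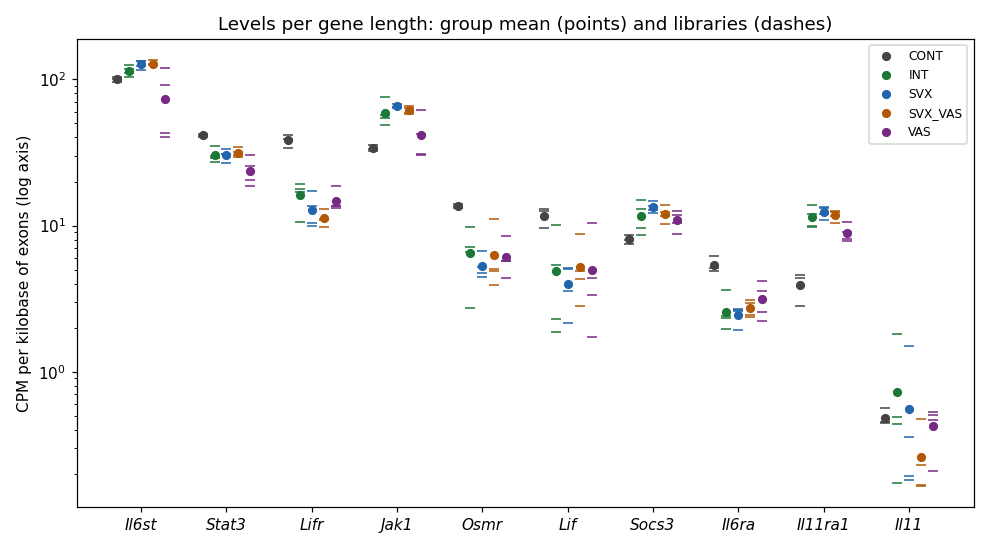
Level per gene length, in CPM per kb of exons on a log axis, with group means as points and libraries as dashes. Il6st stands highest in each group, Il11 lowest, and Lifr and Jak1 exchange order between estrus and the mated groups.

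Other genes of the pathway were taken from lists by role. Among 10 other ligands of the gp130 family only Ctf1 and Clcf1 passed the filter, and in INT neither was called, at logFC of -0.01 (FDR = 0.984) and 0.12 (FDR = 0.644). Il6 held 1 to 4 counts per estrus library and 5 to 9 in INT, and Osm 1 to 13 and 4 to 11, so the ligands of Il6ra and Osmr were near the limit of detection in these groups. Il27 averaged 2.94 CPM at estrus and 1.05 CPM in INT. Ctf2, Cntf, Ebi3 and Il31 averaged 1.02, 0.663, 0.542 and 0.111 CPM at estrus and 1.69, 0.588, 0.883 and 0.0300 CPM in INT. These ligand genes are given by level only. Of 5 other receptors 3 were tested, Il11ra2 having no count and Cntfr at most 4 counts in an estrus or INT library. Il27ra, the interleukin 27 receptor, measured 2.39 ± 0.790 CPM at estrus and 9.29 ± 0.820 CPM in INT. It passed the filter through mated libraries only, which admits genes that are higher there, so it is given by level. Lepr, the leptin receptor, rose from 26.2 ± 4.55 to 62.3 ± 6.35 CPM (logFC 1.25, SE 0.21, FDR = 0.000182). It was called higher in the 3 other mated groups also, while Il31ra was not called in any (INT logFC -0.72, FDR = 0.16).

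Of the 9 other Janus kinase and STAT genes, 8 passed the filter through the estrus libraries, and of these none was called higher and 4 lower in INT, where 20.9% of all tested genes were called higher and 12.7% lower. Their median logFC was -0.62, beside -0.01 over all tested genes. The remaining gene, Stat4, which acts in lymphocytes, passed through mated libraries only, with 0.972 ± 0.526 CPM at estrus and 2.68 ± 0.515 CPM in INT. The summed level of T and NK cell markers was 5.53 to 15.5 CPM at estrus and 23.1 to 35.5 in INT, and its part in the Stat4 level was not tested. Stat5a, which serves prolactin and related cytokines, fell from 155.1 ± 23.4 to 55.4 ± 19.9 CPM (logFC -1.49, FDR = 0.000323). Jak3 (-0.83, FDR = 6.49e-05), Stat5b (-0.81, FDR = 6.49e-06) and Stat2 (-0.66, FDR = 0.0227) also fell. The 14 other inhibitors comprise SOCS, PIAS and phosphatase genes. Of the 13 that passed the filter through the estrus libraries, 11 were not called, where 33.6% of all tested genes were called, and the median logFC was -0.11. Socs7 rose by 0.62 (FDR = 0.00109) and Socs2 fell by 0.62 (FDR = 0.00156). Socs1 passed the filter through mated libraries only, with 2.48 ± 0.592 CPM at estrus and 4.23 ± 1.22 CPM in INT, where replicate 2 lay inside the estrus range.

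Of 18 genes known to respond to STAT3, 17 passed the filter through the estrus libraries. Of these, 2 were called higher in INT, 5 lower and 10 not, with a median logFC of -0.44. The 7 calls of 17 are near the 33.6% called among all tested genes, where 20.9% were called higher and 12.7% lower. The split by direction was not tested. Icam1, an adhesion molecule, rose from 7.24 ± 1.65 to 29.7 ± 4.25 CPM (logFC 2.03, FDR = 3.12e-05), and Myc, a growth regulator, from 27.6 ± 4.81 to 95.2 ± 30.7 CPM (logFC 1.79, FDR = 5.23e-05). The kinase gene Pim1 fell from 112.3 ± 13.0 to 36.7 ± 22.4 CPM (logFC -1.61, FDR = 0.0184), and Cebpb, a transcription factor of decidualizing stroma, from 22.9 ± 1.19 to 9.72 ± 3.36 CPM (logFC -1.24, FDR = 0.00739). Endothelial markers, cells in which Icam1 is well known, were also higher in INT (all of the 5 that passed the filter through estrus called, sum of 6 markers 138.9 to 211.7 CPM at estrus and 561.8 to 853 in INT), and their part was not tested. SVX, SVX_VAS and VAS had 3, 2 and 2 of these 17 genes called higher and 8, 5 and 7 lower, where 41.5%, 38.5% and 40.4% of all tested genes were called. By direction, 23.1%, 22.1% and 23.2% of all tested genes were called higher and 18.4%, 16.4% and 17.2% lower. Without VAS replicates 2 and 3, VAS had 2 higher and 6 lower, where 36.2% were called.

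Of the uterine genes tied to LIF by knockout or injection work, 5 passed the filter through the estrus libraries, and of these 3 were called higher in INT and 1 lower, where 20.9% of all tested genes were called higher and 12.7% lower. Coch, a secreted matrix protein, rose by 2.43 (FDR = 0.000334), Egr1, an immediate early transcription factor, by 1.59 (FDR = 0.00652), and Msx1, a homeobox regulator of receptivity, by 1.12 (FDR = 0.00194). Hbegf, a further growth factor of this family, fell from 17.7 ± 1.86 to 8.76 ± 2.04 CPM (logFC -1.01, FDR = 0.0235). Areg, an epidermal growth factor family ligand of the luminal epithelium, passed the filter through mated libraries only and is given by level, with 2 to 4 counts per library at estrus (0.166 ± 0.0662 CPM) and 33 to 139 counts in INT (5.91 ± 2.97 CPM). Ereg, of the same family, had no count in any estrus library and 1 to 52 counts in INT, under the filter, and Ptgs2 was not called (logFC -0.55, SE 1.27, FDR = 0.766). Coch, Egr1 and Msx1 were also called higher in SVX, SVX_VAS and VAS, where 41.5%, 38.5% and 40.4% of all tested genes were called, and in VAS without replicates 2 and 3. Hbegf was called lower in SVX and SVX_VAS but not in VAS, at a logFC of -0.43 (FDR = 0.294), or -0.71 (FDR = 0.152) without VAS replicates 2 and 3, of which replicate 2 held 18.9 CPM.

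**Figure D5:**
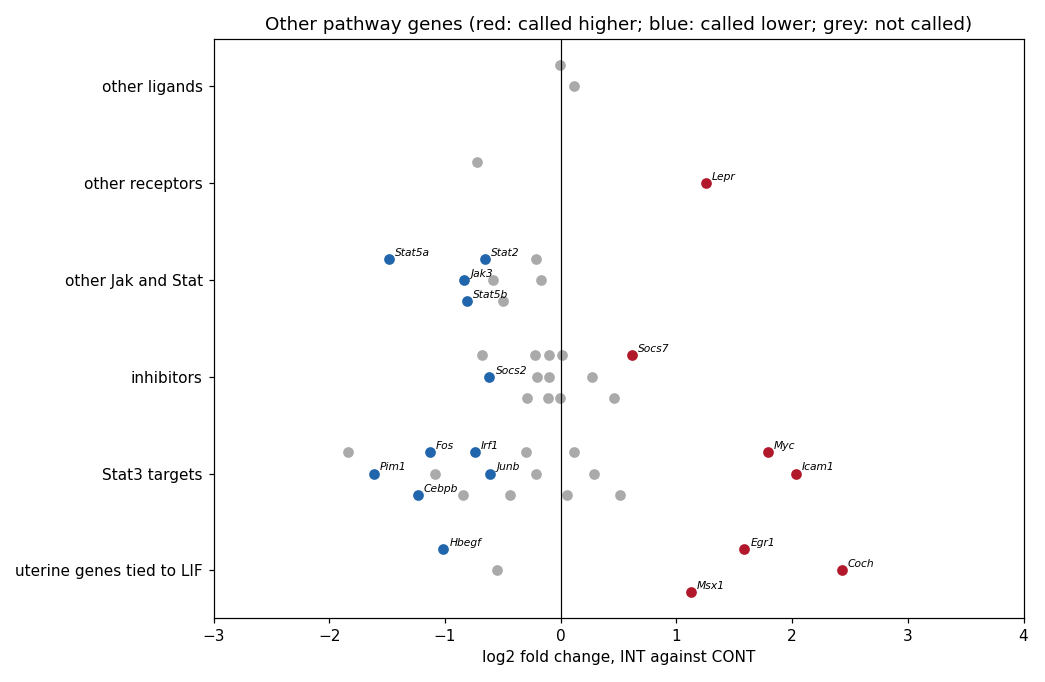
Log2 fold change in INT against estrus of genes on 6 lists around the pathway that passed the filter through the estrus libraries, red where called higher, blue where called lower and grey where not called. Coch stands farthest to the right at 2.43, the STAT3 targets spread to both sides, and 11 of the 13 inhibitors shown are not called.

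Within the mated animals, 6 relations between levels were computed over the 16 libraries on the log2 scale, and none passed after Benjamini-Hochberg adjustment in permutation tests. Lif and Socs3 gave r = 0.247 (permutation p = 0.35, adjusted 0.706) and rho = 0.188 (p = 0.483, adjusted 0.58). The largest in size was Lif with the gland marker sum, at r = -0.474 (permutation p = 0.0629, adjusted 0.377) and rho = -0.485 (p = 0.0585, adjusted 0.28), and r = -0.395 without the 2 libraries farthest from the median of Lif. Lif and Stat3 gave r = 0.104 over the 16 libraries (permutation p = 0.706, adjusted 0.706; rho = 0.309, adjusted 0.366), and Lifr and Il6st gave r = -0.166 (permutation p = 0.555, adjusted 0.706; rho = -0.387, adjusted 0.28). Without VAS replicates 2 and 3, a choice made after the data were seen, Lif and Stat3 gave r = 0.644 over 14 libraries (permutation p = 0.0138, adjusted 0.0414) and 0.624 without the 2 farthest libraries, while rho was 0.556 (p = 0.0413, adjusted 0.164). In the same 14 libraries Lifr and Il6st gave r = -0.621 (permutation p = 0.0125, adjusted 0.0414) with rho = -0.462 (p = 0.0959, adjusted 0.192), and this r was -0.357 without the 2 farthest libraries, so that relation rests on those libraries. Measured as deviations from each group's mean, the values over these 14 libraries were r = 0.593 for Lif with Stat3 and -0.388 for Lifr with Il6st.

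By pattern over all 19 libraries, the tested genes most like Lif were N4bp1 (r = 0.931), Plcxd3 (0.926), Ttc39c (0.900), Csf3, which encodes a granulocyte growth factor (0.896), and Nfkbiz (0.896). Over the 16 mated libraries they were Gm43200 (0.903), Plcxd3 (0.896), N4bp1 (0.891), Csf3 (0.861) and Gm43788 (0.861), so 3 of the 5 are on both lists. Without VAS replicates 2 and 3 they were Gm43200 (0.909), Skap2 (0.901), Lrrtm2 (0.899), Gm43365 (0.893) and Plcxd3 (0.883). N4bp1 and Csf3 thus left the list without that pair. For Socs3 the most alike over 19 libraries were Zfp281 and Rbm18 (0.870 each), Gm7298 (0.868), Glipr2 (0.858) and Serpina3n (0.848), and over the 16 mated libraries Pde3b (0.857), Sfrp4 (0.793), Zfp281 (0.79), B3galnt1 (0.778) and Tacr1 (0.769). Without VAS replicates 2 and 3 Pde3b (0.893) again led for Socs3, while Sfrp4, Zfp281, B3galnt1 and Tacr1 left the first 5. For Il11, at a few counts per library, the most alike were Slc20a1 (0.837), Smad6 (0.828), Trabd2b (0.807), Mcph1 (0.804) and Ppp1r8 (0.792) over 19 libraries and Slc20a1 (0.894), Agtr2 (0.86), Cthrc1 (0.853), Trabd2b (0.845) and Prkg2 (0.833) over 16. Without VAS replicates 2 and 3 Slc20a1 (0.903) and Agtr2 (0.883) stayed, while Cthrc1, Trabd2b and Prkg2 left the first 5. These are the highest of 17222 correlations per gene, the libraries share depth and composition with every gene, and over 19 libraries the difference between estrus and mating enters each value.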

How the data were processed

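Endometrial total RNA of 19 pooled samples was made into stranded libraries and sequenced from both ends. Per the paper's methods, the authors trimmed adapters with AdapterRemoval, aligned reads with STAR to GRCm38/mm10 and counted them per gene with featureCounts. The values they deposited are raw counts per gene, with exon coordinates and gene length. Whether strand was used in counting is not given in the sources used here, and reads were not analysed.

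Groups were taken from the column names, which GEO's sample descriptions repeat. Symbols were found for 48349 of 49089 genes in GENCODE. The 17222 genes reaching 3 CPM in 3 or more libraries were tested in R 4.3.3 with edgeR 4.0.16 (TMM, glmQLFit, glmQLFTest, all 19 libraries, 5 groups), with Benjamini-Hochberg FDR over all tested genes. Levels are TMM-scaled CPM, log2 CPM used a prior count of 2, and CPM per kb used the deposited gene length. The fit was tested on simulated data. Single values were compared by exact permutation, and relations by permutation in SciPy 1.17.1. Alternatives were RLE and upper quartile scaling, DESeq2 1.42.0, limma-voom (limma 3.58.1) with and without quality weights, other filters, only the compared groups, a replicate block and each library left out. Leaving out VAS replicates 2 and 3 or INT replicates 1 and 2 was chosen after seeing the data. Named were the 10 genes, the called genes of each list with the 4 largest changes in INT, all listed ligands and receptors, and the 5 genes most like Lif, Il11 and Socs3; Stat2, Hbegf, Ereg and Ptgs2 were added after their values were seen. Results for some listed genes are left out of this account. The genes and lists were chosen with earlier results of these data known.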

Additional observations from a re-analysis of the deposited data

Results flagged for a closer look

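Among the 40 sets of 4 mated libraries searched, each 1 gene in 1 group, 3 held a library whose distance from the others was large for a group of that size, where chance gives about 2. Il11 was at 0.424 CPM in VAS replicate 4, while the other VAS libraries lay between 0.941 and 1.07 CPM. Lifr was at 191.4 CPM in VAS replicate 1, while the others lay between 135.8 and 141.0 CPM. Il6ra was at 16.8 CPM in SVX replicate 2, while the others lay between 22.4 and 23.1 CPM.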

How the results depend on the processing

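Of 494 alternative values of the 26 member differences that were followed, 471 kept their direction and their side of the cutoffs, 14 lost a call, 9 gained one and 0 changed sign. These 26 were every tested gene in INT but only the genes called by the main fit in SVX, SVX_VAS and VAS. Calls gained by other differences are therefore not counted here. Examples given above are Lif in SVX_VAS and VAS with plain limma-voom, and Jak1 in VAS without VAS replicates 2 and 3. The changed calls among the 26 concerned Lif, Osmr, Socs3, Il6ra and Stat3. They are given with those genes, apart from Stat3 and Socs3 in INT, called once no fold cutoff was set. With the replicate block, the Lif value in SVX was -1.37 (FDR = 0.0678). With each library left out in turn, genes called ranged from 4913 to 6260 in INT, 6462 to 7300 in SVX, 5763 to 6854 in SVX_VAS and 6160 to 8236 in VAS against estrus, and members called from 4 to 6, 6 to 7, 5 to 6 and 5 to 6. Between SVX and INT DESeq2 called 3 genes, and between SVX_VAS and INT 2. Between VAS and INT limma-voom called 1661 genes and quality weights 4718, with 3 members, and leaving out libraries gave 0 to 576 genes (576 without VAS replicate 1, 134 without VAS replicate 4) and 0 to 2 members. The joint test of the mated groups called 21 genes with DESeq2, 1396 with limma-voom and 9444 with quality weights, which also called 6 members (Lifr, Il6st, Il11ra1, Il6ra, Jak1 and Stat3). The cause was not tested. Upper quartile scaling moved the median of all genes up by 0.13, 0.17, 0.15 and 0.20 on the log2 scale in the 4 comparisons with estrus, and in VAS the share of calls that were higher from 57.4% to 70.5%. With a replicate block, genes called against estrus were 5594, 6911, 6399 and 6769 and members 5, 6, 5 and 5, with 0 genes against INT; same-numbered deviations correlated at -0.69 to 0.58, a library matched its own number best in 2, 1, 0 and 3 of 3 pairs with estrus and 0, 0 and 2 of 4 with INT, and the numbers were not taken as pairs. Without TMM factors, 9 of 50 group means of CPM moved by more than 1 SD, 8 of them at estrus. Pools of unknown size and 3 estrus libraries limit every comparison with estrus.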
